A study of Homo sapiens with 24 samples.

Results

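Lysosomal membrane proteins and transporters were examined in HepG2 cells, an established human liver cancer line. The 10 genes (LAMP1, LAMP2, CD63, SCARB2, NPC1, NPC2, MCOLN1, CTNS, SLC17A5 and CLCN7) were taken by name, by matching the Entrez gene ID of each symbol to the deposited count table. All 10 were present, with 1 row each, among 11927 features with a gene ID. HepG2 cells were transduced with lentiCRISPRv2, which carries Cas9 and a guide RNA, and selected with puromycin. The guide was sgCtrl, against the AAVS1 safe-harbour locus, or 1 of 2 guides against KEAP1 (sgKEAP1-1 and sgKEAP1-2), and every group therefore carried Cas9 and a guide. Each line then received pooled non-targeting siRNAs (siNC) or siRNA pools against both TFEB and TFE3 (siTFEB/siTFE3). RNA was collected 72 h after transfection. This gave 6 groups of 4 libraries, 24 in all, and the sources used here state neither whether clones were isolated nor whether the 4 libraries of a group came from separate cultures, so p-values measure the spread between these libraries, which may be technical.

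KEAP1 holds the transcription factor NRF2 at low levels by presenting it to a ubiquitin ligase. TFEB and TFE3 are MiT/TFE transcription factors that bind E-box (CLEAR) sequences in the promoters of lysosomal genes. The limiting membrane of the lysosome is lined by heavily glycosylated proteins, and transporters and channels in it carry cholesterol, amino acids, sugars and ions out of or into the lumen. NPC2 is the exception among the 10, as it encodes a soluble protein of the lumen, which hands cholesterol to the membrane protein NPC1. The study asked whether loss of KEAP1 alters lysosomal gene expression and whether TFEB and TFE3 are required for it.

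Promoter sequences are shown first, because the E-box letters CACGTG, the core of the CLEAR element, set the genes apart from each other. RefSeq promoter windows, from 250 bases before to 50 bases after a start, were given for 9 of the 10 genes, in 18 windows. LAMP2 had no entry. CACGTG, a palindrome that reads the same on both strands, was found in 4 of the 9 genes with 11 matches in all. In comparison, 8.77% of the 27305 genes with a window held it in at least 1 window. LAMP1 had 6 matches, of which 5 lay before the start, CLCN7 and MCOLN1 2 each, and CD63 1. The longer CLEAR-type TCACGTGA, which contains the E-box and is also a palindrome, was found in LAMP1 and MCOLN1, against 1.18% of all genes. Genes with several windows, such as CD63 with 8, have more chances of a match. The first 4 sequences below show these E-boxes in capitals, 5′ to 3′ on the strand of the gene. The last shows in capitals the only match in NPC2, to the antioxidant response element (ARE)-type TGACNNNGC that NRF2 is known to bind, searched on both strands and present in 16.1% of all genes. All coordinates are from exact matches to GRCh37.

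LAMP1 (chr13:113951354-113951553, plus strand, the 200 bases before the start): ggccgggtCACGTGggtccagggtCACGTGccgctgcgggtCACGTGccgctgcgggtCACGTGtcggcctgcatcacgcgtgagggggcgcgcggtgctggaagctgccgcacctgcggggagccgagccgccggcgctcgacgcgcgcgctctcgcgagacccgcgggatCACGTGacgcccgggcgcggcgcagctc
CLCN7 (chr16:1525049-1525078, minus strand, 49 to 20 bases before the start): atCACGTGgccccgtcgcgcgtCACGTGgc
MCOLN1 (chr19:7587450-7587509, plus strand, the 60 bases before the start): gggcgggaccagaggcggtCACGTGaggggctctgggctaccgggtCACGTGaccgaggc
CD63 (chr12:56122956-56122985, minus strand, 192 to 163 bases before 1 of its 8 starts): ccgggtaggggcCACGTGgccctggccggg
NPC2 (chr14:74960054-74960083, minus strand, 75 to 46 bases before 1 of its 2 starts): acaggtcgccTGACTGGGCtcctccccggg

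The windows of SCARB2, NPC1, NPC2, CTNS and SLC17A5 held no CACGTG. TGACNNNGC was also found in LAMP1, where it overlaps an E-box, and in SLC17A5. A match in these windows describes the letters and does not show binding.

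The 24 libraries held between 3527000 and 4600951 reads each, and 11152 genes passed the filter on low counts. KEAP1 mRNA was lower with sgKEAP1-1 under siNC (53.8 ± 6.17 CPM, counts per 1000000 reads of the scaled library, SD, n = 4, against 84.9 ± 6.69, adjusted p = 1.02e-04), but not detectably with sgKEAP1-2 (77.4 ± 3.89, adjusted p = 0.448). A guide can disrupt a protein without lowering its mRNA. TFEB and TFE3 mRNA fell with the siRNA pools over the 3 guides (log2 fold change -1.92 and -1.67, adjusted p = 4.91e-06 and 6.33e-08). Within guides TFE3 fell with all 3, and TFEB fell with both KEAP1 guides but was not called with sgCtrl (-1.96, adjusted p = 0.0858). TFE3 mRNA was itself higher with sgKEAP1-2 under siNC (0.67, adjusted p = 0.0254) and had 0.52 with sgKEAP1-1 (adjusted p = 0.113). The first principal component (31.8% of the variance) separated sgCtrl from the KEAP1 guides, and the second (11.7%) set apart the libraries numbered 1 of siNC with sgKEAP1-1 and of siTFEB/siTFE3 with sgKEAP1-2. Of 14 hepatocyte markers, all measured, 8 to 10 were lower with a KEAP1 guide. In those comparisons 10.5% to 20.2% of all genes were called in either direction. None of the markers was called with the siRNA pools, against 0.0179% to 2.33% of all genes. The summed level of the markers was 29607 to 44110 CPM in the sgCtrl libraries against 17753 to 25249 with a KEAP1 guide. Of 15 markers of blood, endothelial, stromal and biliary cells, 5 were in the table (CD14, LYZ, PDGFRB, ACTA2 and SOX9). PTPRC, CD3E, CD79A, PECAM1, VWF, CDH5, COL1A2, LUM, DCN and KRT7 were not. The 5 had a summed level of 1887 to 3214 CPM in siNC sgCtrl libraries and 1216 to 2192 CPM with a KEAP1 guide under siNC. LYZ made up most of this sum, at 944 to 2813 CPM over the 24 libraries. SOX9 had 209 to 348 CPM, and ACTA2, PDGFRB and CD14 at most 64.7, 11.6 and 6.10. Between 1 and 3 of the 5 were lower with KEAP1 guides, against the same 10.5% to 20.2% of all genes. With averaged knockdown 1 was lower, against 2.33%. All libraries are from 1 cell line, and in bulk RNA a change in some of its cells and a change in all of them cannot be told apart. The part of these shifts in the results below was not tested.

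**Figure D1:**
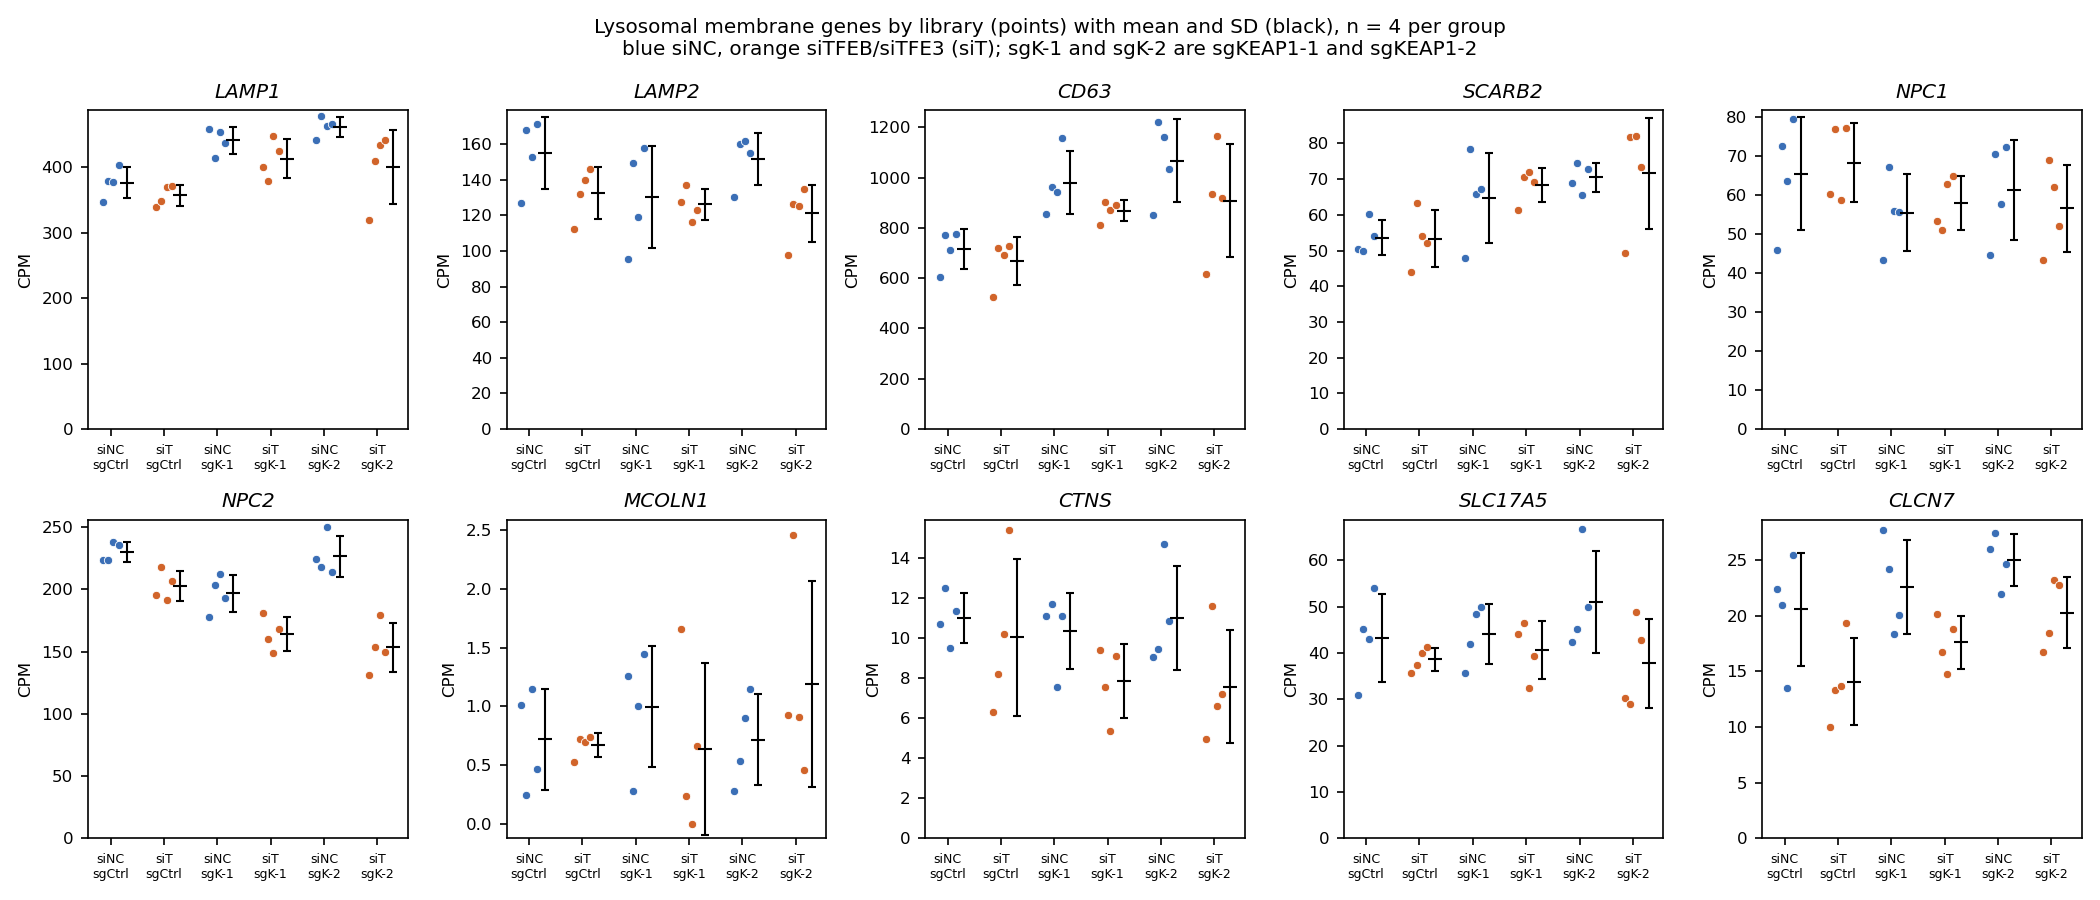
Level of each of the 10 genes in CPM (y axis, linear) in the 6 groups (x axis), with 1 point for each of 24 libraries and the mean and SD of 4 libraries in black beside them. CD63 libraries with a KEAP1 guide under siNC (851 to 1223 CPM) sit above all sgCtrl libraries under siNC (603 to 775), NPC2 is lowest in siTFEB/siTFE3 with a KEAP1 guide, and MCOLN1 reaches at most 2.46 CPM.

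The impact of KEAP1 loss was examined first, in cells with siNC. CD63 was higher with both KEAP1 guides, LAMP1 was higher with sgKEAP1-2, and no lysosomal membrane gene was called lower. With sgKEAP1-1, 1 of the 9 genes tested was called (CD63), where 10.9% of all genes tested were called and 6.01% were higher. With sgKEAP1-2, 2 of 9 were called (CD63 and LAMP1), against 14.7% of all genes called and 7.58% higher. With the guides averaged, the same pair was called, against 16.8% of all genes. These shares rest on 9 genes and are given beside the background as a description. A gene is called at an adjusted p below 0.05 (limma-voom, two-sided, Benjamini-Hochberg over all 11152 genes), and all adjusted p-values below are from this fit. The median log2 fold change of the 9 genes was 0.04 with sgKEAP1-1 and 0.25 with sgKEAP1-2, against -0.02 and -0.0032 over all genes.

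CD63 encodes a tetraspanin of late endosomes and lysosomes that is also sorted into exosomes (GRCh37 chr12:56119107-56123491, minus strand). Under siNC its level was 603, 773, 711 and 775 CPM with sgCtrl. With sgKEAP1-1 it was 857, 964, 944 and 1156 CPM, and with sgKEAP1-2 it was 851, 1223, 1163 and 1034 CPM. Every library with a KEAP1 guide was above every sgCtrl library, as for 7.67% of all genes with sgKEAP1-1 and 11% with sgKEAP1-2. The log2 fold change was 0.45 for sgKEAP1-1 (SE 0.15, 1.37-fold, adjusted p = 0.0474) and 0.57 for sgKEAP1-2 (SE 0.15, 1.49-fold, adjusted p = 0.00854). The sgKEAP1-2 call held without any single library. The sgKEAP1-1 call lies at the threshold. It was lost in 17 of the 24 fits without 1 library (adjusted p up to 0.156) and held without siNC sgKEAP1-1 1, siNC sgKEAP1-2 1, siTFEB/siTFE3 sgCtrl 1 or 4, or siTFEB/siTFE3 sgKEAP1-2 1, 2 or 3, and without the 2 libraries that stood apart it was 0.52 (adjusted p = 0.00381).

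LAMP1 encodes one of the most abundant glycoproteins of the lysosomal membrane (chr13:113951554-113977987, plus strand). Its level under siNC was 346, 379.7, 377 and 404 CPM with sgCtrl. It was 459, 414, 454 and 438 CPM with sgKEAP1-1, and 442, 479, 462 and 466 CPM with sgKEAP1-2. The KEAP1 libraries again lay above all sgCtrl libraries, as for 7.67% of all genes with sgKEAP1-1 and 11% with sgKEAP1-2. The log2 fold change was 0.30 for sgKEAP1-2 (SE 0.091, 1.23-fold, adjusted p = 0.0266), and 0.23 for sgKEAP1-1 (SE 0.091, adjusted p = 0.117), which was not called. The sgKEAP1-2 call was lost without siNC sgCtrl replicate 1, 2 or 3, or siNC sgKEAP1-2 replicate 2, 3 or 4 (adjusted p 0.0528 to 0.0935).

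LAMP2, the paralogue of LAMP1, of which 1 splice form is the receptor for chaperone-mediated autophagy, was not called with either guide. LAMP2 (chrX:119560003-119603220, minus strand) had 155 ± 20.3 CPM (SD, n = 4) with sgCtrl, 130.3 ± 28.7 with sgKEAP1-1 and 152 ± 14.6 with sgKEAP1-2, all under siNC. These groups overlapped, and the log2 fold change was -0.27 (95% interval -0.55 to 0.01) for sgKEAP1-1 and -0.02 (-0.30 to 0.26) for sgKEAP1-2. The lowest sgKEAP1-1 value, 95.3 CPM, was in a library that stood apart, and without the 2 such libraries the log2 fold change was -0.12.

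SCARB2 (LIMP-2) carries the enzyme glucocerebrosidase to the lysosome (chr4:77079890-77155689, minus strand). Under siNC its level was 50.3, 49.9, 60.3 and 54.0 CPM with sgCtrl and 68.9, 74.6, 65.5 and 72.9 CPM with sgKEAP1-2. These groups did not overlap, as for 11% of all genes higher in this comparison. The log2 fold change of 0.40 was not called (adjusted p = 0.0777, SE 0.15), but it was called with a term for the replicate number in the fit. With sgKEAP1-1 the level was 47.9, 78.4, 65.9 and 67.3 CPM, where the lowest value, in replicate 1, lay below all sgCtrl values. That library was 1 of the 2 that stood apart, and without both, SCARB2 was called with sgKEAP1-1 (log2 fold change 0.40, adjusted p = 0.0161) and with sgKEAP1-2 (0.40, adjusted p = 0.00644). The 3′ ends of SCARB2 and CLCN7 overlap antisense non-coding genes, that of NPC1 overlaps RMC1 and that of CTNS overlaps TAX1BP3, both on the opposite strand. The strand setting of the counting is not stated, so reads of each such pair cannot be told apart.

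The cholesterol pair NPC1 and NPC2 was not called in either direction under siNC. NPC1, the membrane protein that exports cholesterol (chr18:21086148-21166470, minus strand), had 65.4 ± 14.5 CPM with sgCtrl, 55.5 ± 9.76 with sgKEAP1-1 and 61.3 ± 12.8 with sgKEAP1-2. NPC2 (chr14:74942895-74960880, minus strand) had 223, 224, 238 and 236 CPM with sgCtrl and 178, 203, 212 and 193 CPM with sgKEAP1-1. All 4 sgKEAP1-1 values were lower, as for 6.47% of all genes, but the log2 fold change of -0.23 was not called (adjusted p = 0.126, SE 0.093). With sgKEAP1-2 NPC2 was 224, 218, 250.1 and 214 CPM, which overlapped sgCtrl (log2 fold change -0.02).

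None of the channels and transporters was called under siNC. CLCN7, a chloride and proton exchanger (chr16:1494935-1525078, minus strand), had 20.6 ± 5.08 CPM with sgCtrl, 22.6 ± 4.22 with sgKEAP1-1 and 25.0 ± 2.35 with sgKEAP1-2. CTNS, the cystine exporter mutated in cystinosis (chr17:3539753-3566397, plus strand), had 11.0 ± 1.25, 10.3 ± 1.89 and 11.0 ± 2.58 CPM in the same order. SLC17A5, the sialic acid exporter sialin (chr6:74303102-74363715, minus strand), had 31.0 to 54.0, 35.8 to 49.9 and 42.4 to 66.9 CPM in that order. In all 3 genes the groups overlapped, and for CTNS, with 30 to 65 reads per library under siNC, the 95% interval of the sgKEAP1-2 change ran from -0.51 to 0.50. MCOLN1, the calcium channel TRPML1 (chr19:7587510-7598895, plus strand), had 0 to 10 reads per library, with a mean of 3.29, and failed the filter. A floor of 3 reads was worth 0.664 to 0.928 CPM, and no change in MCOLN1, whose promoter holds 2 of the E-boxes shown above, was detectable at these counts. Without the filter its adjusted p was 0.649 to 1.00 over the 13 contrasts. The 3′ end of MCOLN1 is overlapped on the same strand by PNPLA6 and by another protein-coding gene, so reads there may not have been assigned to it, and their part in its low counts was not tested.

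**Figure D2:**
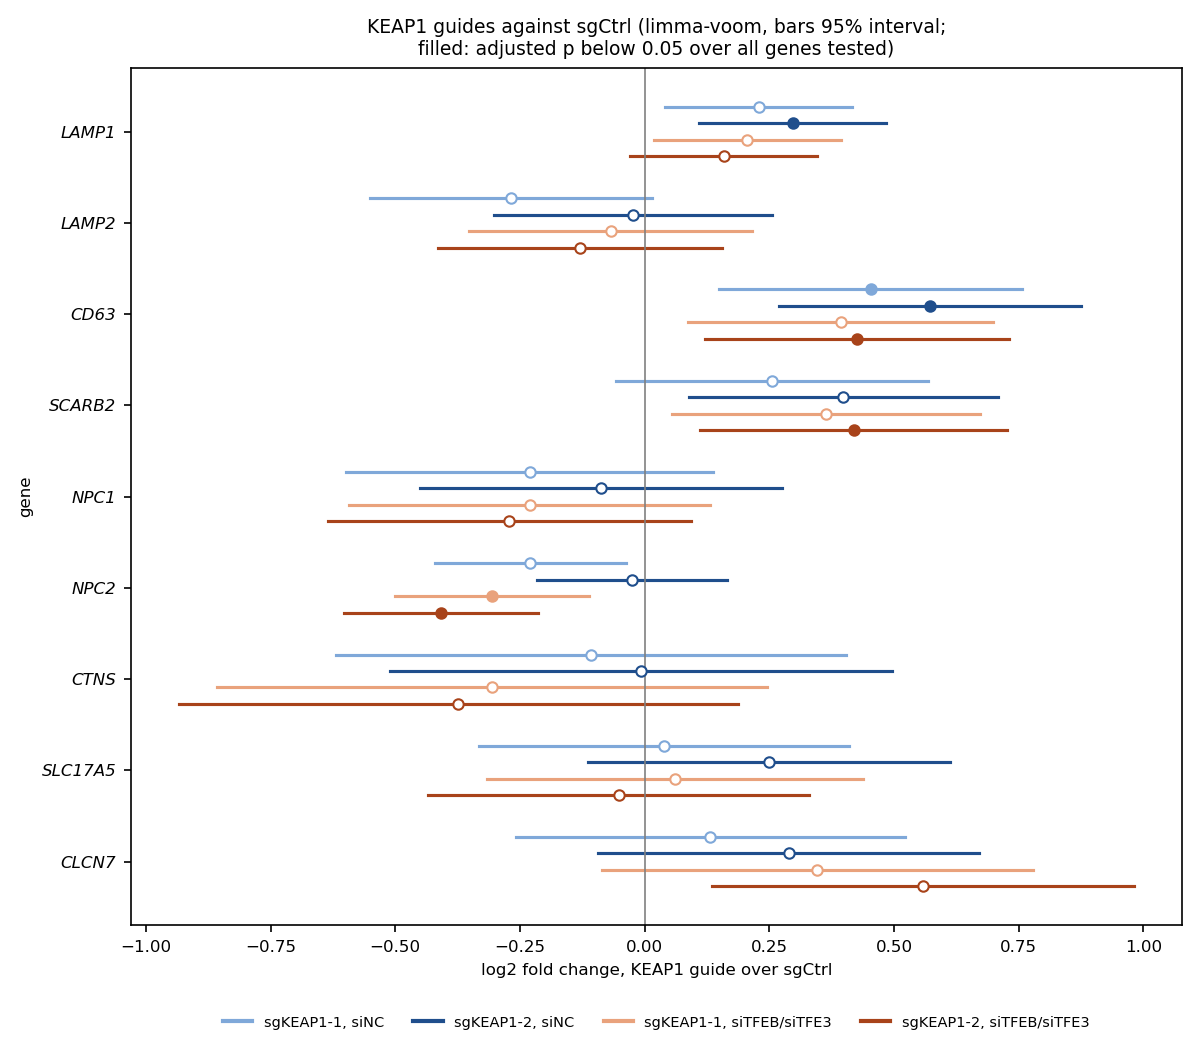
Log2 fold change of each of the 9 genes tested (y axis) for each KEAP1 guide against sgCtrl (x axis), under siNC in blue and under siTFEB/siTFE3 in orange, with 95% intervals as bars and filled points where the adjusted p was below 0.05. CD63, LAMP1, SCARB2 and CLCN7 lie to the right of 0 in all 4 comparisons, CLCN7 with no filled point. NPC2 is the gene with filled points left of 0, under siTFEB/siTFE3 (-0.31 and -0.41).

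The same comparison was made in cells with knockdown of TFEB and TFE3, where NPC2 was lower with both KEAP1 guides. With sgKEAP1-1, 1 of 9 genes was called (NPC2), against 10.5% of all genes tested and 4.81% lower. With sgKEAP1-2, 3 of 9 were called, with CD63 and SCARB2 higher and NPC2 lower, against 20.2% of all genes called, 10.6% higher and 9.59% lower. The median log2 fold change of the 9 genes was 0.06 and -0.05, against 0.0030 and 0.0086 over all genes. These comparisons use other sgCtrl libraries than those under siNC.

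NPC2 under siTFEB/siTFE3 was 196, 218, 192 and 207 CPM with sgCtrl. It was 181, 159.9, 149 and 168 CPM with sgKEAP1-1, and 131, 154, 179 and 149 CPM with sgKEAP1-2. All 8 libraries with a KEAP1 guide were below all 4 sgCtrl libraries, as for 8.11% of all genes with sgKEAP1-1 and 9.24% with sgKEAP1-2. The log2 fold change was -0.31 for sgKEAP1-1 (SE 0.094, adjusted p = 0.0362) and -0.41 for sgKEAP1-2 (SE 0.095, adjusted p = 0.00254). The sgKEAP1-2 call held without any single library and without the 2 that stood apart (-0.34, adjusted p = 0.00451), whereas the sgKEAP1-1 call was lost without any 1 of 7 libraries (siTFEB/siTFE3 sgCtrl 2 or 4, siTFEB/siTFE3 sgKEAP1-1 2, 3 or 4, siTFEB/siTFE3 sgKEAP1-2 replicate 4 or siNC sgCtrl replicate 3, adjusted p 0.0507 to 0.149).

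CD63 under siTFEB/siTFE3 was 525, 721, 692 and 729.6 CPM with sgCtrl. It was 811, 902, 873 and 890.5 CPM with sgKEAP1-1, and 617, 934, 1166 and 919 CPM with sgKEAP1-2. The sgKEAP1-1 libraries were all above sgCtrl, as for 9.06% of all genes, yet the log2 fold change of 0.39 was not called (adjusted p = 0.0979, SE 0.15). This change was called with a term for the replicate number in the fit. For sgKEAP1-2 the log2 fold change was 0.43 and called (SE 0.15, adjusted p = 0.0420), although the library at 617 CPM lay inside the sgCtrl range. That library, replicate 1, stood apart, and without the 2 such libraries the changes were 0.39 (adjusted p = 0.0184) and 0.60 (adjusted p = 5.48e-04). With all libraries, the sgKEAP1-2 call was lost in 19 of the 24 fits without 1 library (adjusted p up to 0.239) and held without siNC sgCtrl 1, siNC sgKEAP1-1 1, siNC sgKEAP1-2 4, siTFEB/siTFE3 sgCtrl 4 or siTFEB/siTFE3 sgKEAP1-2 1.

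SCARB2 under siTFEB/siTFE3 was 43.9, 63.3, 54.0 and 52.0 CPM with sgCtrl and 49.2, 81.9, 82.0 and 73.4 CPM with sgKEAP1-2. Only replicate 1 of sgKEAP1-2 fell within the sgCtrl range. The log2 fold change was 0.42 (SE 0.15, 1.34-fold, adjusted p = 0.0485). This call held only without siNC sgCtrl 1, siNC sgKEAP1-1 1, siTFEB/siTFE3 sgCtrl 2 or siTFEB/siTFE3 sgKEAP1-2 1 among the 24 fits without 1 library. With sgKEAP1-1 SCARB2 was 61.3, 70.5, 72.0 and 69.3 CPM, and the log2 fold change of 0.36 was not called (adjusted p = 0.138). LAMP1 was 339, 349, 370.4 and 371 CPM with sgCtrl. It was 399.9, 379, 447 and 425 CPM with sgKEAP1-1 and 319, 409.6, 434 and 442 CPM with sgKEAP1-2. Neither change was called (0.21, adjusted p = 0.174, and 0.16, adjusted p = 0.247). Without the 2 libraries that stood apart, both were (0.20, adjusted p = 0.0422, and 0.26, adjusted p = 0.00913).

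CLCN7 under siTFEB/siTFE3 was 10.0, 13.3, 13.7 and 19.3 CPM with sgCtrl and 16.7, 18.5, 23.2 and 22.7 CPM with sgKEAP1-2. The log2 fold change of 0.56 (adjusted p = 0.0561, SE 0.21) missed the threshold, and it was called without the 2 libraries that stood apart (0.63, adjusted p = 0.0244). A term for the replicate number in the fit also led to a call. LAMP2, NPC1, CTNS and SLC17A5 overlapped sgCtrl with both guides and were not called.

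The effect of the knockdown itself was then examined within each guide. NPC2 was lower in siTFEB/siTFE3 than in siNC, called with sgKEAP1-2 and when the guides were averaged. In sgCtrl cells 0 of 9 genes were called, against 0.0179% of all genes tested (2 genes), and 1 of the 9 (CLCN7) had an unadjusted p below 0.05, against 4.63% of all genes. In sgKEAP1-1 cells 0 of 9 were called, against 0.0897%, again with 1 (NPC2) at an unadjusted p below 0.05, against 8.08% of all genes. In sgKEAP1-2 cells 1 of 9 was called (NPC2), against 0.359% called and 0.26% lower, and 5 of 9 had an unadjusted p below 0.05, against 10.5% of all genes. Averaged over the 3 guides, 1 of 9 was called (NPC2), against 2.33% called and 1.39% lower, and 6 of 9 had an unadjusted p below 0.05, against 13% of all genes. The edgeR and DESeq2 tests also called 0 of 9 in sgCtrl and sgKEAP1-1 cells.

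With sgKEAP1-2, NPC2 was 224, 218, 250.1 and 214 CPM under siNC and 131, 154, 179 and 149 CPM under siTFEB/siTFE3. The groups did not overlap, as for 3.19% of all genes lower in this comparison. The log2 fold change was -0.57 (standard error 0.094, 0.676 of the siNC level, adjusted p = 0.00355). Without the 2 libraries that stood apart it was -0.49 (adjusted p = 0.00325). With only the groups compared in the fit the value was again -0.57, but it was not called (adjusted p = 0.113).

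In sgCtrl cells all 4 NPC2 libraries under siTFEB/siTFE3 (192 to 218 CPM) lay below all 4 under siNC (223 to 238 CPM), as for 1.75% of all genes, but the change was not called (log2 fold change -0.18, SE 0.093, adjusted p = 1.00). In sgKEAP1-1 cells the log2 fold change was -0.26 (adjusted p = 0.434, SE 0.095), and 1 siTFEB/siTFE3 library, at 181 CPM, overlapped the siNC range of 178 to 212 CPM. Averaged over the 3 guides NPC2 fell by 0.34 on the log2 scale (SE 0.054, adjusted p = 5.96e-04). This averaged call held without any single library (log2 fold change -0.37 to -0.31) and in all 11 alternative analyses.

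Most of the other genes had lower values with knockdown that were not called. Averaged over the guides, the log2 fold change was negative in 7 of 9 genes, where 52.95% of all genes were positive. The median was -0.19 against 0.0095 over all genes. The 9 genes share their libraries, so their signs are not independent. CLCN7 had a log2 fold change of -0.40 (adjusted p = 0.0592, SE 0.11), with 20.6 ± 5.08 CPM under siNC and 14.1 ± 3.87 under siTFEB/siTFE3 in sgCtrl cells. This averaged CLCN7 change was called with a term for the replicate number in the fit. CTNS had -0.39 (adjusted p = 0.226), SLC17A5 -0.23 (0.329), LAMP2 -0.19 (0.279), CD63 -0.18 (0.386) and LAMP1 -0.13 (0.258). SCARB2 and NPC1 had values close to 0 (0.03, 95% interval -0.14 to 0.21, and 0.02, -0.20 to 0.23). The 3 tested genes with CACGTG in a window (CLCN7, CD63 and LAMP1) all had negative values, none of them called in the main fit. Of the 5 whose windows held none, NPC2, CTNS and SLC17A5 had negative values, of which NPC2 was called, and SCARB2 and NPC1 were the pair near 0. The groups of genes were not tested against each other.

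**Figure D3:**
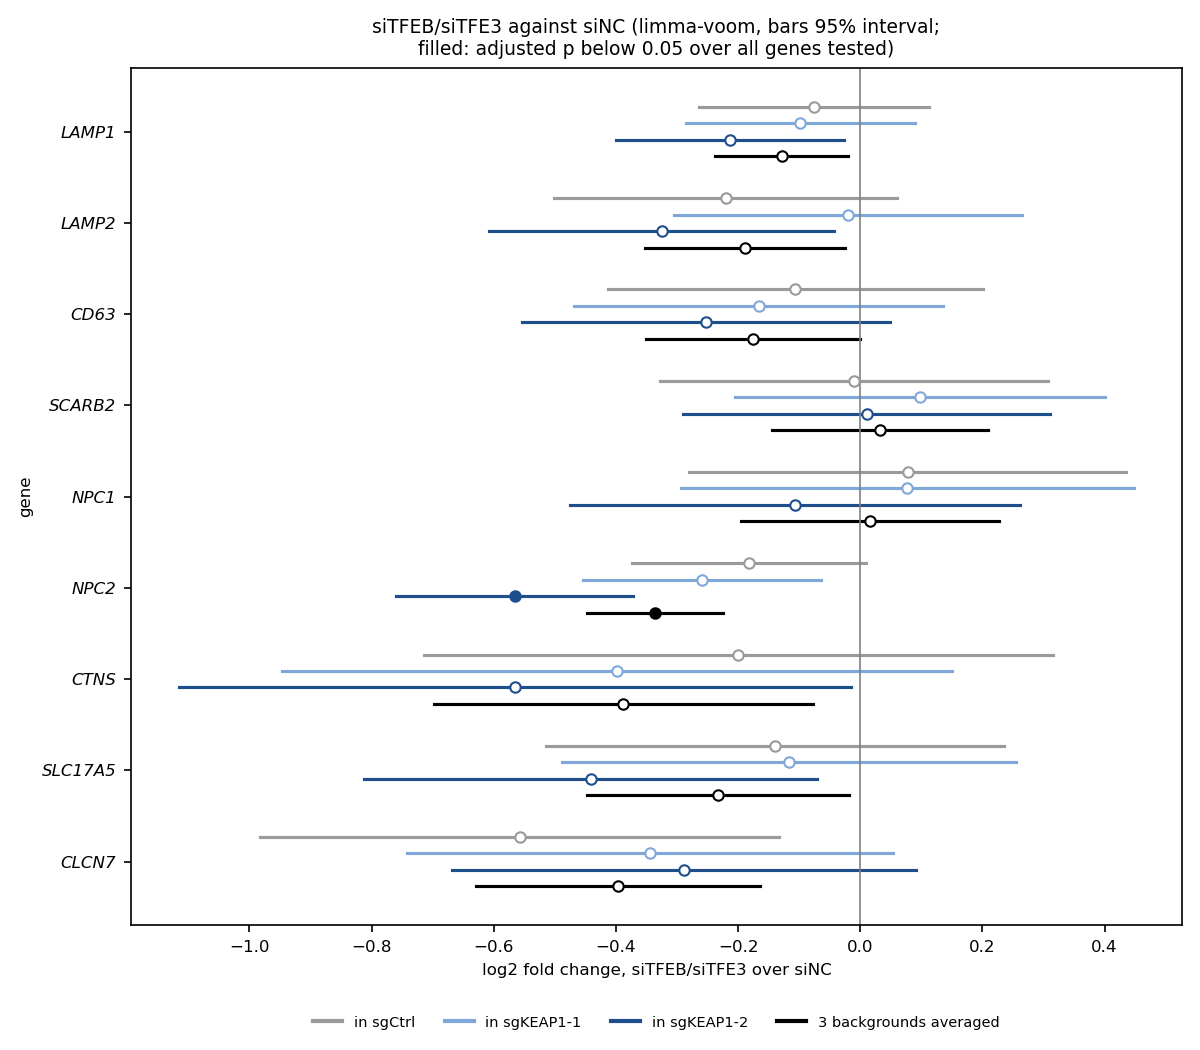
Log2 fold change of each of the 9 genes tested (y axis) for siTFEB/siTFE3 against siNC (x axis) within sgCtrl, sgKEAP1-1 and sgKEAP1-2 and averaged over the 3 (black), with 95% intervals as bars and filled points where the adjusted p was below 0.05. NPC2 is the one gene with filled points (-0.57 with sgKEAP1-2 and -0.34 averaged), and SCARB2 and NPC1 lie near 0.

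Whether knockdown altered the effect of KEAP1 loss was tested as an interaction, the KEAP1 effect under siTFEB/siTFE3 minus that under siNC. In limma-voom 0 of 9 genes were called for sgKEAP1-1, for sgKEAP1-2 or for the guides averaged, against 0% of all genes tested in each, and edgeR and DESeq2 called none of the 9. An unadjusted p below 0.05 was found for 0, 1 and 0 of the 9, against 2.73%, 4.07% and 3.13% of all genes. The 1 gene was NPC2 with sgKEAP1-2 (log2 difference -0.38, 95% interval -0.66 to -0.11, adjusted p = 0.991). For CD63 the interaction was -0.06 (95% interval -0.49 to 0.37) and -0.15 (-0.58 to 0.28), intervals that hold both no difference and the loss of the whole rise under siNC. The rise of CD63 under siNC and its level under siTFEB/siTFE3 are therefore not shown to differ or to be alike.

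The guides were compared with each other under siNC. In limma-voom 0 of 9 genes were called, against 0% of all genes tested, with 1 of 9 and 5.36% of all genes at an unadjusted p below 0.05, and edgeR and DESeq2 called none of the 9. All 9 had positive values for sgKEAP1-2 against sgKEAP1-1, as had 52.2% of all genes, with a median of 0.14 against 0.010 over all genes. The 9 values come from the same libraries and are not independent. The gene at p below 0.05 was NPC2 (0.20, 95% interval 0.01 to 0.40), where all sgKEAP1-2 libraries (214 to 250.1 CPM) were above all sgKEAP1-1 libraries (178 to 212), as for 1.5% of all genes.

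Over the 6 groups, neighbours in the order of the means overlapped for every gene with 1 exception. The share of all genes with such a gap was not computed, so the order is given as a description. CD63 under siNC with sgCtrl (715 ± 80.9 CPM) did not overlap the next higher group, siTFEB/siTFE3 with sgKEAP1-1 (869 ± 40.7). Above that lay siTFEB/siTFE3 with sgKEAP1-2 (909 ± 225), siNC with sgKEAP1-1 (980.4 ± 126) and siNC with sgKEAP1-2 (1068 ± 165), which overlapped. LAMP1 had the same order at its top (441 ± 20.2 and 462 ± 15.4 CPM) and was lowest in siTFEB/siTFE3 with sgCtrl (357 ± 15.9). NPC2 was highest in siNC with sgCtrl (230.3 ± 7.93) and lowest in siTFEB/siTFE3 with sgKEAP1-2 (153 ± 19.9).

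The libraries that share the number 1 had low values of several of these genes. CD63 was lowest in the library numbered 1 in all 6 groups, LAMP2 in 5 of 6, and LAMP1, SCARB2, NPC1 and SLC17A5 in 4 of 6. The sample descriptions carry 1 date-like prefix per number, shared by all 6 groups, but the labels do not say what it or the number marks. Fits with a term for the number, or without the libraries numbered 1, changed some calls, which are given in the last section. The cause of these changes was not tested. Within each number, CD63 was higher with a KEAP1 guide than with sgCtrl in all 4 numbers for both guides and both siRNA conditions, with log2 differences of 0.23 to 0.75. NPC2 was lower in siTFEB/siTFE3 than in siNC in all 4 numbers with sgCtrl (-0.31 to -0.04) and with sgKEAP1-2 (-0.78 to -0.48), and in 3 of 4 with sgKEAP1-1 (-0.51 to 0.03). This was not particular to NPC2. LAMP1 was lower in all 4 numbers with each of the 3 guides. LAMP2 and CD63 were lower in all 4 numbers, except for 3 of 4 with sgKEAP1-1 (LAMP2) and with sgKEAP1-2 (CD63). The share of all genes with such within-number differences was not computed.

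Other genes of the lysosomal membrane were taken from fixed lists. Of 47 other channels and transporters, 36 were in the table and 35 were tested. Under siNC 1 rose and 1 fell with sgKEAP1-1 (5.71% of the 35, against 10.9% of all genes), and 5 rose and 1 fell with sgKEAP1-2 (17.1%, against 14.7%). Between the guides themselves 0 of the 35 differed. SLC48A1, a heme transporter, was higher with sgKEAP1-1 (log2 fold change 0.88, adjusted p = 0.0288). Its value of 0.62 with sgKEAP1-2 was not called (adjusted p = 0.132). SLC11A2, an iron transporter, was lower with both guides (-0.39 and -0.42, adjusted p = 0.0144 and 0.00719). With sgKEAP1-2 SLC26A11 (0.64), SLC66A1 (0.57) and LMBRD1 (0.55) were higher. OSTM1, the accessory subunit of CLCN7, named here after its values were seen, was also higher with sgKEAP1-2 (0.53, adjusted p = 0.0245). Under siTFEB/siTFE3 the calls were 0 higher and 2 lower for sgKEAP1-1, then 4 higher and 2 lower for sgKEAP1-2 (5.71% and 17.1%, against 10.5% and 20.2% of all genes). SLC48A1 (0.86), SLC26A11 (0.57) and SLC66A1 (0.56) were among those higher there with sgKEAP1-2. SLC2A6 was lower with both guides there (-0.85 and -0.68). Knockdown lowered 1 of the 35 when averaged over the guides, SLC66A1, an exporter of basic amino acids (-0.38, adjusted p = 0.0394), which is 2.86% against 2.33% of all genes, and 0 within a single guide. The median log2 fold change of the list was 0.05 and 0.13 with the guides under siNC and -0.01 with averaged knockdown, against -0.02, -0.0032 and 0.0095 over all genes.

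Of 35 other membrane glycoproteins and scaffold proteins, 32 were in the table and 29 were tested. Under siNC the calls were 1 higher and 1 lower for sgKEAP1-1, then 2 higher and 1 lower for sgKEAP1-2 (6.90% and 10.3% of the 29, against 10.9% and 14.7% of all genes). The tetraspanin TSPAN1 was higher with both guides (1.31 and 1.18, adjusted p = 0.0264 and 0.0413), at only 13, 9, 7 and 7 reads in the sgCtrl libraries. TMEM97, which binds NPC1, was lower with both under siNC (-0.75 and -0.99) and under siTFEB/siTFE3 (-0.82 and -0.96), with adjusted p of 0.0111, 7.76e-04, 0.00544 and 7.12e-04. Under siTFEB/siTFE3 1 rose (TMEM9B, 0.45) and 1 fell with sgKEAP1-1, and 0 rose and 2 fell with sgKEAP1-2 (6.90% each, against 10.5% and 20.2% of all genes). Knockdown averaged over the guides lowered 1 of the 29 (3.45%, against 2.33% of all genes). This was the lysosomal membrane glycoprotein GLMP (-0.38, SE 0.076, adjusted p = 0.00403). Its means were 69.1 and 54.8 CPM in sgCtrl, 61.8 and 51.5 in sgKEAP1-1 and 71.8 and 48.9 in sgKEAP1-2 under siNC and siTFEB/siTFE3. The median of this list was 0.08 and 0.16 with the guides under siNC and 0.05 with averaged knockdown.

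Of 15 partners of the 10 genes, proteins that act with them, carry them or supply their cargo, 14 were tested. IGF2R, a receptor that carries enzymes to the lysosome, was the 1 gene higher with sgKEAP1-2 under siNC (0.65, adjusted p = 0.0366), and 0 were called with sgKEAP1-1 (7.14% and 0% of the 14, against 14.7% and 10.9% of all genes). With sgKEAP1-1 under siNC IGF2R was 108, 324, 330 and 323 CPM, against 173 to 220 with sgCtrl. The lowest of these, replicate 1, was in a library that stood apart. Under siTFEB/siTFE3 IGF2R was higher with both guides (0.75 and 0.91, adjusted p = 0.0231 and 0.00283). It was called alone with sgKEAP1-1, and together with the lipid phosphatase FIG4 (1.00, adjusted p = 0.0436) and the calcineurin subunit PPP3CA (0.31, adjusted p = 0.0430) with sgKEAP1-2 (7.14% and 21.4% of the 14, against 10.5% and 20.2%). FIG4 had few reads, 15, 12, 14 and 9 with sgCtrl and 14, 15, 46 and 32 with sgKEAP1-2. Its CPM in these groups overlapped. LIPA, the acid lipase that frees the cholesterol which NPC2 and NPC1 export, was the 1 partner lower with knockdown. This 1 call was 7.14% of the 14 with sgKEAP1-1, with sgKEAP1-2 and averaged, against 0.0897%, 0.359% and 2.33% of all genes. LIPA fell with sgKEAP1-1 (-0.83, SE 0.17, adjusted p = 0.0461), with sgKEAP1-2 (-0.89, SE 0.17, adjusted p = 0.0151) and averaged (-0.78, SE 0.096, adjusted p = 2.12e-05), and had -0.61 with sgCtrl (adjusted p = 0.398). Its level went from 51.8 ± 8.36 to 33.8 ± 4.94 CPM with sgCtrl, from 49.7 ± 10.3 to 27.3 ± 2.99 with sgKEAP1-1 and from 50.6 ± 5.32 to 27.3 ± 4.78 with sgKEAP1-2. The median of the list was -0.0044 and 0.11 with the guides under siNC and -0.00095 with averaged knockdown.

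**Figure D4:**
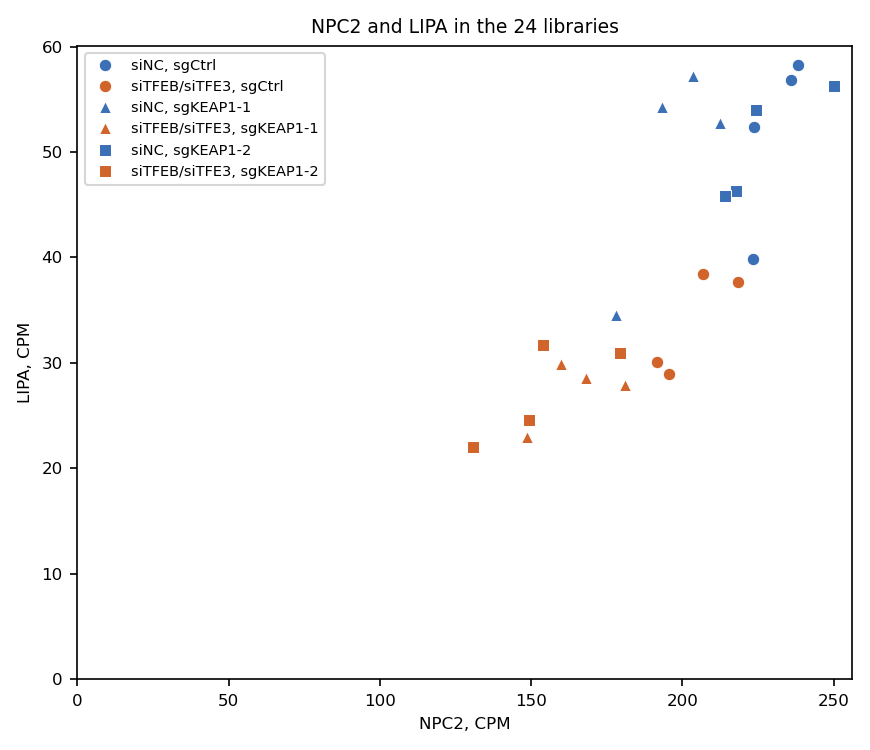
Level of NPC2 (x axis, CPM) against LIPA (y axis, CPM), both linear, in the 24 libraries, with siNC in blue, siTFEB/siTFE3 in orange and the guide as the marker shape. The siTFEB/siTFE3 libraries lie at 131 to 218 CPM of NPC2 and 22.0 to 38.4 CPM of LIPA, and the siNC libraries at 178 to 250.1 and 34.5 to 58.3 CPM.

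The genes most like each called gene were sought by Pearson's r of log2 CPM over the 24 libraries, which share their groups and, in part, their depth, so that r is given as a description. LIPA was the gene most like NPC2 (r = 0.860), before KBTBD7 (0.858) and SULT2A1 (0.855). CD63 was most like TUBB2B (0.946), CTSB, the protease cathepsin B (0.933), and ADAM17 (0.926). LAMP1 was most like PHLDB1 (0.897), TUBB2B (0.863) and CD63 (0.857). SCARB2 was most like RASD1 (0.884), ZFP36L1 (0.877) and MCL1 (0.874).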

How the data were processed

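RNA from HepG2 cells was measured in 24 libraries. The libraries were QuantSeq 3′, so each transcript is sampled at its 3′ end. Per the study's methods, reads were trimmed, STAR aligned them and featureCounts counted them per gene, all on Galaxy. The submitters' processing notes name FastQC 0.72, cutadapt 1.16, STAR 2.7.5b, featureCounts 1.6.3 and limma 3.40.6. The methods give hg19 and the processing notes hg38, and the table holds no coordinates, so the build behind the counts is not settled. The strand setting is not given in the sources used here. Values the authors deposited are raw counts of reads per gene, with no normalization, 1 column per library. No row of the table sums to less than 15 reads over the libraries, so a gene missing from it may have had few reads. Of 13446 rows, 1414 without a gene ID (1.35% to 2.57% of the reads of a library) were left out. Rows sharing an ID (43 rows, 20 IDs) were summed, and IDs with identical counts were merged, which left 11927 features. Symbols were matched to NCBI's gene table for 11980 of 12009 IDs.

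Genes were filtered with filterByExpr by group (11152 kept), scaled with TMM and tested with limma-voom, the approach the study names, in 1 fit of 6 group means over all 24 libraries (R 4.3.3, limma 3.58.1, edgeR 4.0.16) with 13 contrasts. Tests were two-sided, with Benjamini-Hochberg adjustment over all genes of a contrast and a threshold of 0.05. CPM uses the TMM-scaled library size, and log2 CPM a prior count of 2. The fit of the averaged knockdown was also run on simulated counts, with the same spread for every gene and no libraries set apart. That run checks the code and does not describe the spread of these libraries. Replicate pairs differed by more than counting error (chi-square per degree of freedom 3.48 to 33.3), so no library was counted as a repeat of another. Reads carry no molecular identifier, so the floor of 3 counts covers counting error only.

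Alternatives were edgeR's quasi-likelihood test, DESeq2 1.42.0, other scalings, filters, weights and library subsets, and a term for the replicate number. The alternative without the 2 libraries that stand apart was chosen after seeing the data. The members and lists were chosen with earlier results of these data known. The 10 genes and the targeted genes were always named. From each list, up to 3 called genes in each direction per comparison were eligible to be named by size of change, at a mean of at least 10 reads. For each called member, the 3 most alike genes at that mean were named. Coordinates are GENCODE genes on GRCh37, and promoter sequences are those of RefSeq (GRCh38.p14) that matched GRCh37 exactly once. Guide and protein sequences were not used here.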

Additional observations from a re-analysis of the deposited data

Results flagged for a closer look

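Of 60 groups of 4 libraries examined (10 genes in 6 groups), 1 held a value far from the others. CTNS in siNC sgKEAP1-1 replicate 3 was 7.54 CPM (30 reads), where the nearest library had 11.1 CPM. This gap was 0.859 of the whole range of the group, above Dixon's 95% critical value for 4 samples. Chance sets apart about 1 in 20 such groups.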

How the results depend on the processing

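Over 11 alternative analyses and 24 fits without 1 library, no call changed direction. NPC2 with averaged knockdown and with sgKEAP1-2 under siTFEB/siTFE3, and CD63 with sgKEAP1-2 under siNC, were called in all of them. The number of the 9 genes called changed as follows. For sgKEAP1-1 under siNC (1) it was 0 with no filter on low counts (CD63, adjusted p = 0.0555), and 2, with SCARB2 added, with library quality weights, without the libraries numbered 1 and without the 2 libraries that stood apart. It was 0 to 2 without 1 library. For sgKEAP1-2 and for the guides averaged (2 each) it was 2 to 3, and 1 to 3 without 1 library. The averaged LAMP1 call was lost without siNC sgCtrl 1 or 3 (adjusted p up to 0.0927). For sgKEAP1-1 under siTFEB/siTFE3 (1) it was 0 with total reads as the scaling, 3 with only the groups compared and without the libraries numbered 1, 4 with quality weights and without the 2 libraries, and 0 to 2 without 1 library. For sgKEAP1-2 under siTFEB/siTFE3 (3) it was 1 with total reads, with no filter and with only the groups compared, 5 with quality weights and without the 2 libraries, and 1 to 5 without 1 library, where CLCN7 was added without siNC sgCtrl 3, siNC sgKEAP1-1 1, siTFEB/siTFE3 sgCtrl 4 or siTFEB/siTFE3 sgKEAP1-2 1. Leaving out the last of these also added LAMP1 with sgKEAP1-1 under siNC (adjusted p = 0.0308), SCARB2 with sgKEAP1-2 under siNC (0.0268), and under siTFEB/siTFE3 LAMP1 with sgKEAP1-2 (0.0160) and CD63 with sgKEAP1-1 (0.0335). SCARB2 with sgKEAP1-2 under siNC was also added without siNC sgKEAP1-1 1 (0.0407). For knockdown with sgKEAP1-2 (1) it was 0 with only the groups compared, and 1 in every fit without 1 library. For averaged knockdown (1) it was 2 with DESeq2 (CLCN7, adjusted p = 0.0240), 2 with quality weights and without the libraries numbered 1 (LAMP2, adjusted p = 0.0383 and 0.0135), and 1 to 2 without 1 library, where CLCN7 was added without siNC sgCtrl 3 (0.0190) or siTFEB/siTFE3 sgCtrl 4 (0.0283). The cause of these changes was not tested. Interactions, the guide comparison and knockdown with sgCtrl or sgKEAP1-1 had 0 calls among the 9 throughout. Over all genes, the alternatives gave 766 to 1775 calls for sgKEAP1-1 under siNC (1218), 1505 to 2470 for sgKEAP1-2 under siNC (1641), 1074 to 1991 for sgKEAP1-1 under siTFEB/siTFE3 (1170), and 2 to 13, 1 to 52, 11 to 109 and 258 to 592 for knockdown with sgCtrl (2), sgKEAP1-1 (10), sgKEAP1-2 (40) and averaged (260), and 0 to 9 between the guides (0).

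Replicate numbers, which go with a shared prefix in the sample descriptions, were not used as pairs in the main fit. The criterion set was that every pair with the same number correlate above 0.1, and it was not met. Missing so strict a criterion does not show that libraries with the same number share no effect. Deviations from the group mean correlated at -0.163 to 0.430 in the 60 pairs with the same number (median 0.0462, 20 over 0.1), against -0.309 to 0.254 in 180 other pairs (median -0.0246, 17 over 0.1), and 15 of 24 libraries correlated best with their own number. A block for the replicate number gave 2 calls with sgKEAP1-1 under siTFEB/siTFE3 (CD63 added, adjusted p = 0.0102) and 2 with averaged knockdown (CLCN7 added, adjusted p = 0.0417), and added SCARB2 with sgKEAP1-2 (0.0236) and with the guides averaged (0.0270) under siNC and CLCN7 with sgKEAP1-2 under siTFEB/siTFE3 (0.0482). Low counts limit CTNS and CLCN7, with 16 to 65 and 38 to 110 reads per library, and MCOLN1, with 0 to 10.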
